A study of Drosophila melanogaster with 24 samples.

Results

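The untagged mock pull-downs are 4 of the 12 V5 pull-downs in a ChIP-seq study of the clock proteins CLK and CYC in Drosophila melanogaster. They were chosen by label, as the pull-downs from w- flies, and comprise 2 from heads and 2 from bodies. Their peak lists hold 14056 of the 58157 peaks in the 12 lists, 13808 of them from heads and 248 from bodies. By label, flies of the head mock and body mock groups carried no V5 tag, so peaks in these lists are taken here as background. Whether each mock library was free of tagged protein was not tested. The other groups were heads and bodies of flies with V5-tagged CLK and heads and bodies of flies with V5-tagged CYC, 2 replicates each. All flies were 5 to 10 days old, were kept at 25 °C in 12 h of light and 12 h of dark, and were collected at ZT13, 1 h after lights-off. All groups shared the V5-agarose pull-down and 10 min of fixation in 1% formaldehyde. Each preparation pooled many flies of one tissue, and the study's design text calls the replicates independent. Head chromatin was sonicated for 6 rounds and body chromatin for 4 rounds, so tissue and sonication cannot be told apart. Peak lists hold no expression values, so the labelled tissue could not be checked against marker genes.

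A mock pull-down is the negative control of a ChIP-seq experiment: the same beads are added to chromatin that lacks the tagged protein, and what is recovered is background. In the fly genome the euchromatic arms X, 2L, 2R, 3L and 3R carry most genes. Chromosome 4 is a very small chromosome that is largely packaged as heterochromatin yet carries active genes. In the dm3 build, scaffolds whose names end in Het (XHet, 2RHet and others) hold assembled, repeat-rich heterochromatic sequence placed near the centromeres.

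Each list gives the position of every peak and 2 unnamed values of at least 2, called here the first and the second score. Their scale is not known, and read counts are absent from the lists. Library depth is therefore unknown, and a missing peak means only that none was called. Positions are those of the lists, in dm3. No annotation or genome of that build was used, so regions are given by position and not by gene. Head mock replicate 1 stood apart from the other mock lists: it held 12082 of the 14056 mock peaks, and 59.8% and 58.3% of them overlapped a peak of head CLK replicate 1 and head CYC replicate 1. Some results that rest on it are also given without it. Regions in both head lists and all regions in 3 or 4 mock lists include a peak of this list, so they have no such value. The part of list length and depth in the results below was not tested beyond the equal-length values.

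Head mock libraries gave far more peaks than body mock libraries, but the head replicates were unlike each other. The head mock lists held 12082 and 1726 peaks, against 73 and 175 in the body mock lists. The tissues did not overlap, and the larger head list was itself several times as long as the smaller one. On the scale log2(peaks + 1) the mean was 12.16 ± 1.98 in head mock and 6.83 ± 0.88 in body mock (SD, n = 2 each), a difference of 5.32 or 40.0-fold. The exact two-sided permutation test gave p = 0.333, which is the smallest p that 2 against 2 libraries allow, so no test between the tissues could reach 0.05. Without head mock replicate 1 the difference was 3.92. In the tagged lists heads also held more peaks, with 4609 to 13729 in heads and 1153 to 3967 in bodies.

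The bulk of the head background lay on the main arms, at a near-even density over the arms in head mock replicate 1 and a lower density on X in head mock replicate 2. In head mock replicate 1 the arms carried 11105 of 12082 peaks, and in head mock replicate 2 they carried 1577 of 1726. In the body mock lists the arms carried 49 of 73 peaks and 161 of 175 peaks. Density on the arms was thus 94.0 and 13.4 peaks per Mb in the head mock lists, against 0.41 and 1.36 in the body mock lists, over the 118.1 Mb up to the last peak of each arm. Single arms ran from 90.2 to 101.1 peaks per Mb in head mock replicate 1. In head mock replicate 2 they ran from 13.2 to 16.2 on the autosomes, with 7.002 on X. By arm, head mock replicate 1 held 2821 peaks on 3R, 2269 on 3L, 2039 on 2L, 2022 on X and 1954 on 2R. Head mock replicate 2 held 392 on 3L, 368 on 3R, 364 on 2L, 296 on 2R and 157 on X. Body mock replicate 1 held 17 on X, 15 on 3R, 8 on 2L, 5 on 2R and 4 on 3L, while body mock replicate 2 held 40 on 3L, 37 on 3R, 33 on 2L, 31 on 2R and 20 on X. The share on X differed between replicates in both tissues. X took 18.2% and 9.96% of the arm peaks in head mock and 34.7% and 12.4% in body mock, against 13.3% to 18.8% in the 8 tagged lists. The mock libraries therefore fell both above and below the tagged ones. The mean difference between mock and tagged libraries was 3.60 percentage points (exact permutation within tissue, p = 0.453), and it was -1.96 without body mock replicate 1.

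**Figure D1:**
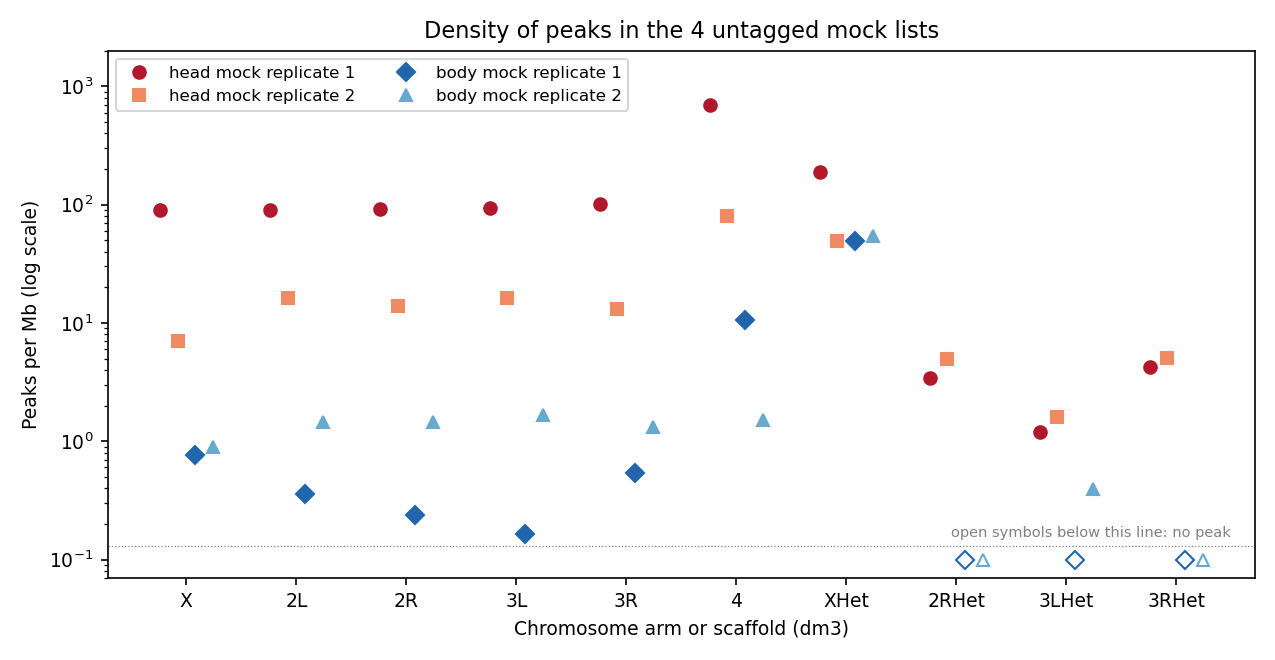
Peaks per Mb (log axis) on each chromosome arm or scaffold in the 4 mock lists, with head mock symbols left of body mock symbols; open symbols mark scaffolds with no peak. Density on the main arms is 94.0 and 13.4 per Mb in head mock and 0.41 and 1.36 in body mock, while on XHet head mock replicate 2 and both body mock lists lie together at 49.3 to 54.2 per Mb.

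Chromosome 4 was dense in mock peaks in 3 of the 4 lists. It carried 915 and 107 peaks in the head mock lists, or 691.6 and 80.9 per Mb over 1.32 Mb. In the body mock lists it carried 14 and 2 peaks, or 10.6 and 1.51 per Mb. Its density was above that of the main arms in every list, by little in body mock replicate 2. As a share of all peaks this was 7.57% and 6.20% in head mock and 19.2% and 1.14% in body mock. The tagged lists held 1.39% to 8.18% in heads and 0.173% to 0.627% in bodies, so both body mock lists lay above all 4 body tagged lists, and the head mock lists lay within the range of the head tagged lists. The mean share in mock libraries exceeded that in tagged libraries by 6.22 percentage points (exact permutation within tissue, p = 0.0356). Adjusted over the 11 tests by the Benjamini-Hochberg method this exact test gave 0.1304, so it did not pass, and the difference was 1.71 points without body mock replicate 1. Between the tissues the mean share was 6.89% ± 0.97 in head mock and 10.2% ± 12.8 in body mock (SD, n = 2 each). That difference of -3.27 points was smaller than the spread between the body replicates, and it was 5.74 without body mock replicate 1.

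The head mock peaks of chromosome 4 lay side by side in long runs. Peaks of head mock replicate 1 covered 17.7% of the chromosome, against 2.36% of X. The 3 clusters with most peaks in that list were all on chromosome 4, where a cluster is a run of peaks with gaps of at most 5000 bp. They were chr4:1010073-1109500 with 141 peaks, chr4:104653-157501 with 93 and chr4:538533-610923 with 84. Head CYC replicate 1, a tagged list, had the cluster with most peaks at nearly the first of these places, chr4:1009877-1105570 with 144 peaks. In head mock replicate 2 the cluster chr4:1147129-1165584 held 10 peaks. In body mock replicate 1 only 3 of the 14 chromosome 4 peaks were in a cluster, and in body mock replicate 2 neither of the 2 was.

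Peaks on the heterochromatic scaffolds were few, and their number differed less between lists than the length of the lists. There were 62 and 42 such peaks in the head mock lists and 10 and 12 in the body mock lists. XHet alone held 38 and 10 peaks in head mock and 10 and 11 in body mock, so 3 of the 4 lists had 10 or 11 peaks there although their lengths differed from 73 to 1726. The other scaffolds gave 2RHet 11 and 16 peaks, 3RHet 10 and 12, and 3LHet 3 and 4 in the head mock lists. The body mock lists had none on 2RHet or 3RHet, and 1 peak on 3LHet in replicate 2.

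As a share of each list, the heterochromatic scaffolds took 0.513% and 2.43% in head mock and 13.7% and 6.86% in body mock. The tissues did not overlap, with a mean of 1.47% ± 1.36 in head mock and 10.3% ± 4.84 in body mock (SD, n = 2 each), a difference of -8.80 points. The exact permutation p was 0.333, again the smallest possible. The body lists with the higher shares had fewer heterochromatic peaks than the head lists and were also shorter.

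Mock lists carried a larger share of heterochromatic peaks than tagged lists of the same tissue. Head mock averaged 1.47% ± 1.36 (SD, n = 2) against 0.388% ± 0.267 in the head tagged lists (n = 4), and body mock averaged 10.3% ± 4.84 against 0.370% ± 0.302 in the body tagged lists. The mean difference was 5.50 points (exact permutation within tissue, p = 0.00889; 0.0489 adjusted over the 11 tests). Both body mock lists and 1 of the 2 head mock lists lay above all tagged lists of their tissue. Since shares change with list length, each list was also cut to its 73 best peaks by the first score, the length of the shortest mock list. Of these 73, heterochromatic scaffolds then held 15 and 19 in head mock and 10 and 12 in body mock. XHet alone held all 15 and 9 of the 19 in head mock, and all 10 and 11 of the 12 in body mock. Neighbouring XHet peaks were counted singly, so these counts are not numbers of separate places. The head tagged lists held 12 in CYC replicate 1 and 0 in the other 3, and the body tagged lists held 4 in CLK replicate 2, 4 in CYC replicate 2 and 0 in the other 2. All 4 mock lists lay above every tagged list of their tissue, by 15.8 points on average (exact permutation, p = 0.00444, the smallest these permutations can give; 0.0489 adjusted over the 11 tests). Both adjusted values lay close to 0.05. When any single library other than head CYC replicate 1 was left out, which also raises the smallest possible p, both adjusted values of the exact permutation were between 0.0733 and 0.147 and neither passed, and without head CYC replicate 1 both were 0.0244. This compares the make-up of the lists and not the amount of background. The cut to 73 peaks leaves the scores unequal, with a highest first score of 612 to 1786 in the tagged lists and at most 91.2 in the mock lists. High-scoring tagged peaks can take places among the 73, and their part in the difference was not tested. In number rather than share, the tagged lists held 6 to 92 heterochromatic peaks in heads and 0 to 8 in bodies. Body mock lists exceeded all body tagged lists and head mock lists lay inside the head tagged range. On the scale log2(peaks + 1) the number differed by 1.15 between mock and tagged lists (exact permutation, p = 0.196), which did not pass the test.

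**Figure D2:**
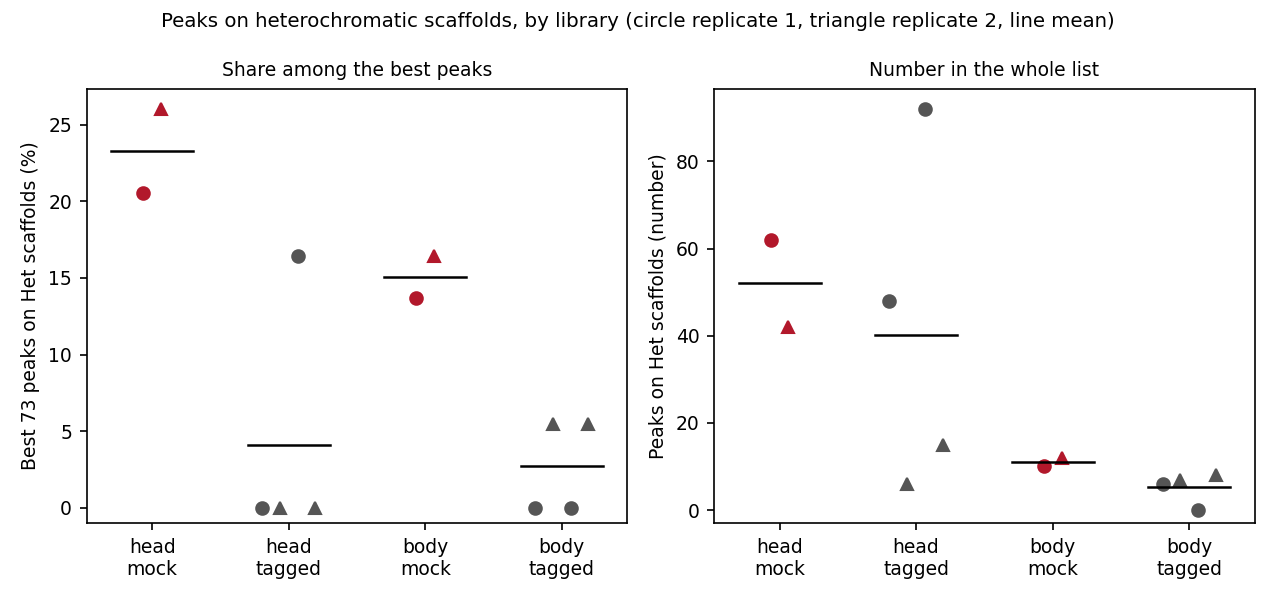
Left, percentage of the 73 best peaks (first score) on heterochromatic scaffolds; right, number of such peaks in the whole list. Each symbol is 1 library (circle replicate 1, triangle replicate 2, red mock, grey tagged CLK or CYC), and lines are group means. In the left panel mock libraries lie at 20.5% and 26.0% in heads and 13.7% and 16.4% in bodies, above all tagged libraries of their tissue; in the right panel head mock and head tagged libraries overlap.

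By first score, the strongest background of all 4 libraries lay in 1 block on XHet. Its bounds were fixed positions set around these high-scoring peaks with the data known. The high ranks of its peaks therefore partly follow from how it was drawn. The block peaks began at position 189235 and ended at position 195995, near the last peak of the scaffold in any mock list. The block held 13 and 7 peaks in the head mock lists and 9 and 11 in the body mock lists. Their first scores ran from 35.4 to 91.2 (median 75.9) in head mock replicate 1 and from 39.5 to 88.0 (median 72.98) in head mock replicate 2. In body mock replicate 1 they ran from 32.7 to 55.9 (median 45.9), and in body mock replicate 2 from 16.2 to 69.7 (median 47.9). Both head medians were above both body medians, although single peaks overlapped. By first score the best peak of every mock list was in this block, and all block peaks ranked 1 to 22 and 1 to 8 in the head mock lists and 1 to 10 and 1 to 14 in the body mock lists. Peaks within it followed each other at a median spacing of 462.5 and 732 bp between midpoints in head mock and 395.5 and 570.5 bp in body mock. Outside the block, XHet held 25 further peaks in head mock replicate 1, 3 in head mock replicate 2, 1 in body mock replicate 1 and 0 in body mock replicate 2. Some of these were strong. In head mock replicate 1 chrXHet:183918-184182 scored 37.6 (rank 19), above the lowest block score of that list. It overlapped the 1 outside peak of body mock replicate 1, chrXHet:184008-184250 at 12.4 (rank 25). In head mock replicate 2 chrXHet:202589-202877 scored 25.3 (rank 10).

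**Figure D3:**
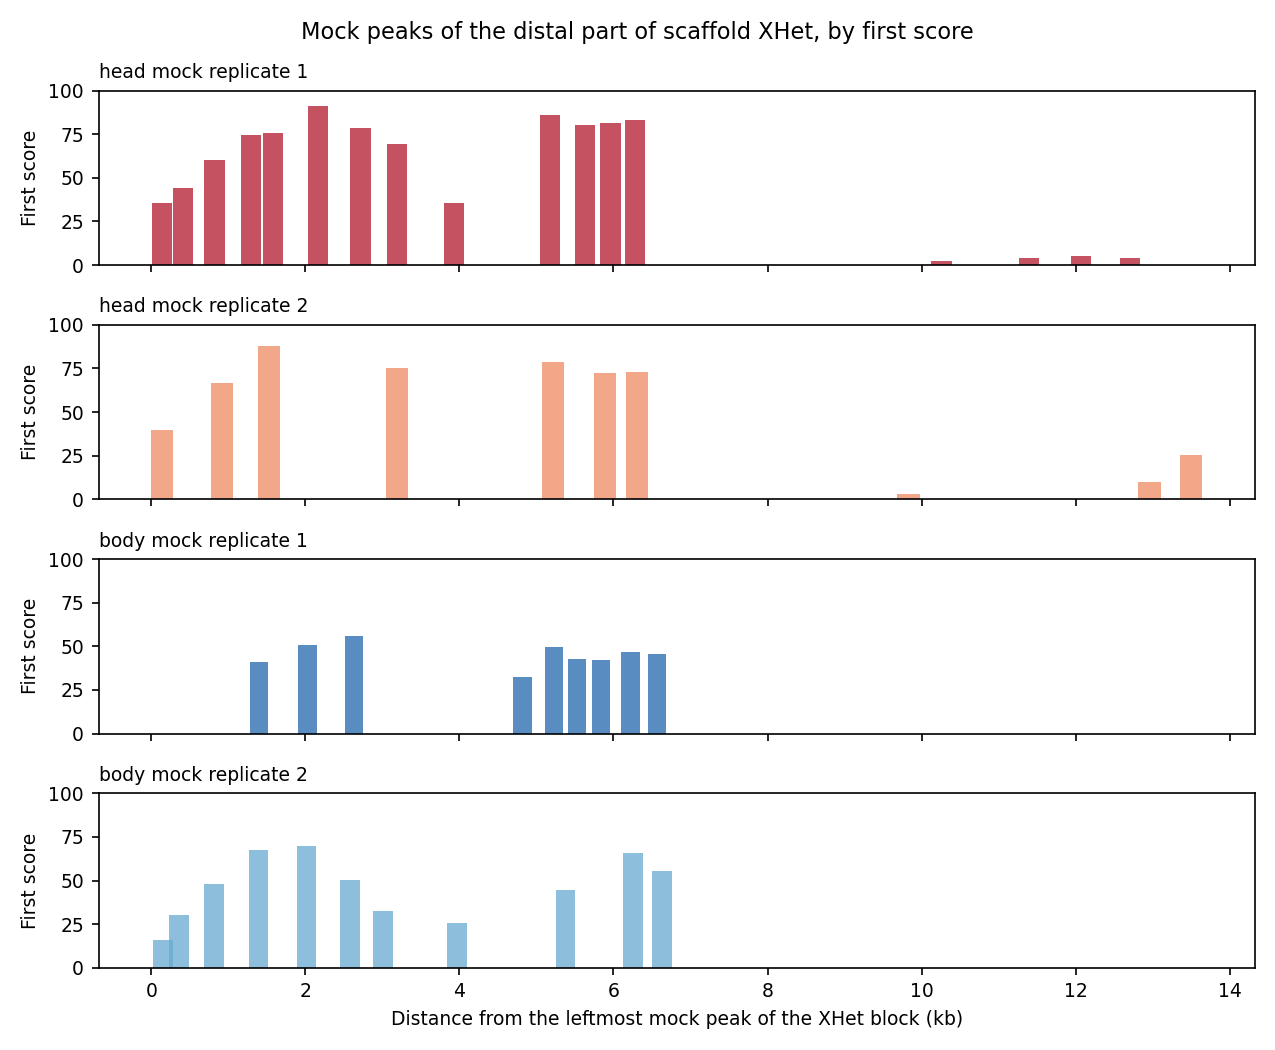
First score (authors' unit, linear axis) of each peak in the end part of scaffold XHet, drawn over its width, against distance in kb from the leftmost mock peak of the block. The block spans less than 7 kb in all 4 mock lists, its peaks reach 91.2 and 88.0 in head mock and 55.9 and 69.7 in body mock, and both head lists have lower peaks beyond it.

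The block was present in 5 of the 8 tagged lists, at lower rank. Head CLK replicate 1 had 16 peaks there at ranks 269 to 1087, and head CYC replicate 1 had 13 at ranks 20 to 98. Head CLK replicate 2 and head CYC replicate 2 had none. In bodies, CLK replicate 1 had 6 peaks at ranks 82 to 121, CLK replicate 2 had 4 at ranks 28 to 52, CYC replicate 2 had 4 at ranks 47 to 67, and CYC replicate 1 had none. Median first scores in the block were 75.9 and 72.98 in the head mock lists against 52.9 and 81.0 in the head tagged lists that held it. In bodies the medians were 45.9 and 47.9 in mock against 34.5, 39.7 and 36.0 in the tagged lists that held it. All of these body tagged medians lay below both body mock medians. The highest first score of a list was 91.2 and 88.0 in head mock and 55.9 and 69.7 in body mock, against 612 to 1786 in the tagged lists. The cause of the lower rank was not tested.

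The second score put this block in the lower part of every mock list. There its peaks scored 2.75 to 4.38 and 2.05 to 2.31 in the head mock lists and 2.13 to 2.94 and 2.08 to 3.01 in the body mock lists. That placed them at ranks 6494 to 9851 of 12082, 1283 to 1661 of 1726, 49 to 70 of 73, and 117 to 174 of 175. Of the 20 best peaks by first score, 12 and 9 in head mock and 9 and 11 in body mock were on XHet, and by second score none was in any mock list. The heterochromatic share among the best peaks thus depended on the score used. Ranked by second score, the 73 best peaks held 3 and 2 heterochromatic ones in head mock and 10 and 0 in body mock, against 0 in all 8 tagged lists. The 10 in body mock replicate 1 are its whole set, because that list has only 73 peaks. The mean difference between mock and tagged lists was then 5.14 points (exact permutation within tissue, p = 0.0222).

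Over whole lists the 2 scores hardly moved together in the mocks. Across peaks, which are not independent replicates, Spearman's rho between them was 0.10 and 0.12 in head mock and -0.15 and -0.07 in body mock, against 0.19 to 0.55 in the tagged lists. Peaks of the highest second score were on the main arms. Head mock replicate 1 had chrX:4259231-4259495 at 221.6, body mock replicate 1 had chr2L:19465495-19465737 at 81.4, body mock replicate 2 had chr3R:8787344-8787602 at 72.3, and head mock replicate 2 had chr2L:15477031-15477319 at 61.7. None of these 4 recurred in another mock list. The chr2L:19465495-19465737 peak was also strong by first score (41.2, rank 8 of 73), whereas chr3R:8787344-8787602 had a first score of only 2.81 and chr2L:15477031-15477319 one of 3.57.

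**Figure D4:**
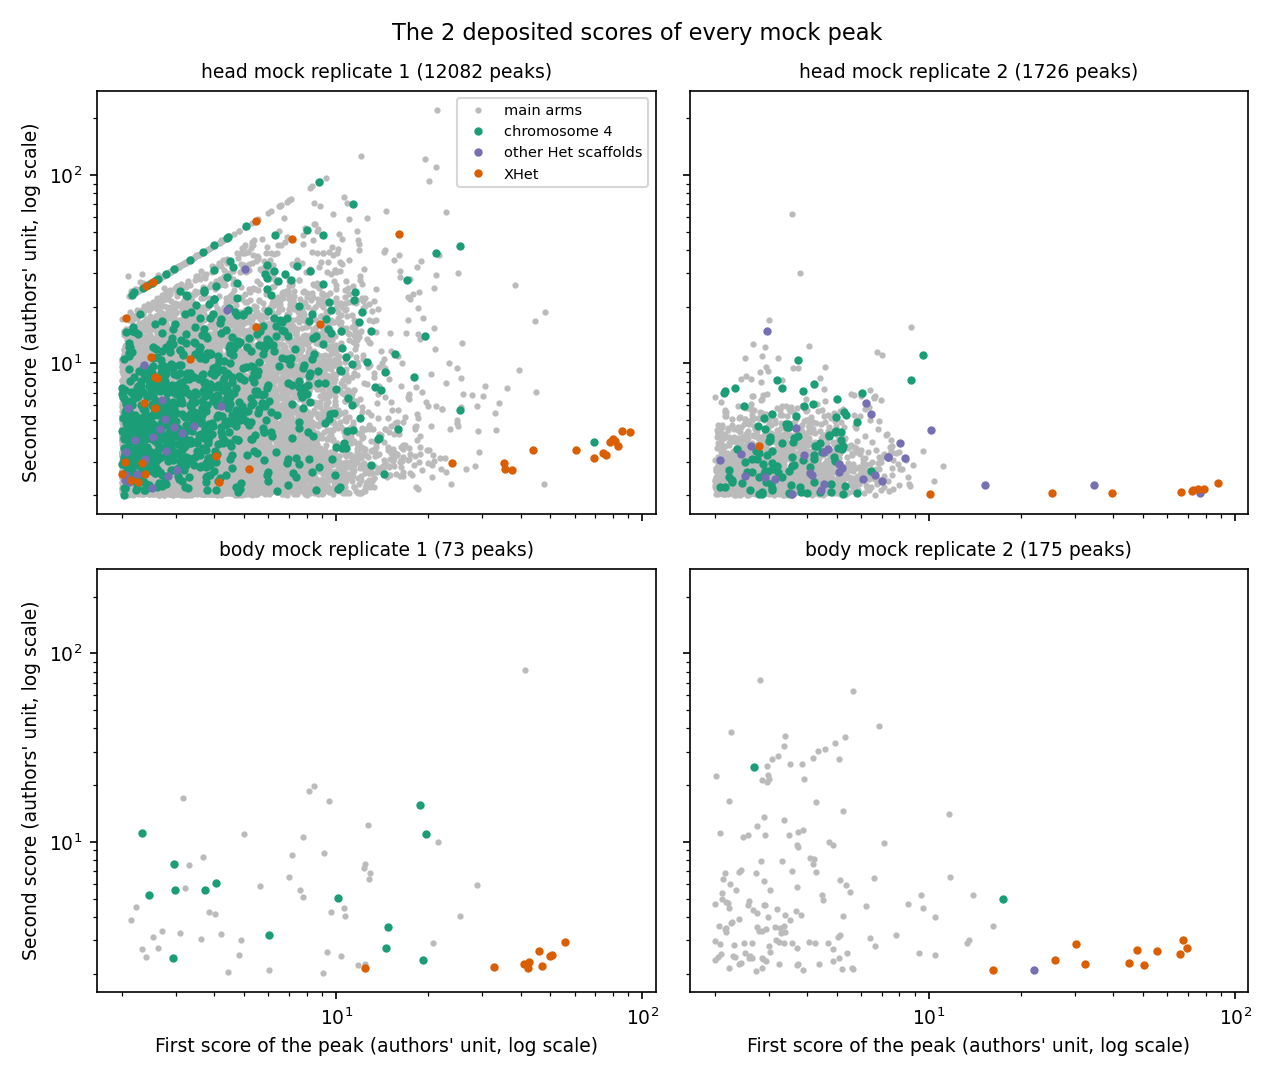
First against second score of every mock peak (both log axes, authors' units), 1 panel per list and colour by place. XHet block peaks form a tail at the lower right of all 4 panels, with first scores up to 91.2 and second scores of at most 4.38, while the highest second scores are on main arms.

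Median first scores of the mock lists lay inside the tagged range in heads and on both sides of it in bodies. The median was 3.29 and 3.24 in head mock and 8.44 and 3.37 in body mock, against 2.99 to 5.71 in the head tagged lists and 5.81 to 8.15 in the body tagged lists. Body mock replicate 1 had the highest median of the 12 lists and body mock replicate 2 one below all body tagged lists. In mock lists 38.3% and 30.5% of head peaks and 72.6% and 38.3% of body peaks reached 3.92, the median over all 12 lists. On the log2 scale the medians differed by -0.71 between head and body mock (exact permutation, p = 0.333, the smallest possible). Without body mock replicate 1 the difference was -0.05. The median second score was 4.69 and 2.74 in head mock and 4.14 and 4.10 in body mock, where the tissues overlapped. Outside the heterochromatic scaffolds the highest first scores in head mock replicate 1 were chr4:1292442-1292706 at 69.6, chrX:9360508-9360830 at 48.2 and chrX:21834866-21835130 at 47.7, the last with no peak in any tagged list. In head mock replicate 2 they were only 11.1 at chr3L:20816437-20816725, 10.4 at chrX:13200-13488 and 9.59 at chr4:1159308-1159626. Body mock replicate 1 had 41.2 at chr2L:19465495-19465737, 28.8 at chrX:4260122-4260401 and 25.4 at chr3R:17199650-17199951. Body mock replicate 2 had 17.4 at chr4:1291222-1291480, 16.2 at chr2L:4811458-4811716 and 14.0 at chrX:14968497-14968904. The second highest heterochromatic place was chr3LHet:2163536-2163824, with a first score of 76.8 in head mock replicate 2 and 22.0 in body mock replicate 2 and no peak in either replicate 1.

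Mock peaks were clustered most where the list was longest. Over whole lists 85.6% and 41.02% of head mock peaks and 39.7% and 10.9% of body mock peaks were in a cluster. The lists formed 1926 and 272 clusters in head mock and 8 and 5 in body mock. At the equal length of 73 best peaks the shares were 52.1% and 23.3% in head mock and 39.7% and 17.8% in body mock, against 31.5% to 43.8% in the tagged lists. The tissues overlapped, and neither comparison passed. Head and body mock differed by 8.90 points (exact permutation, p = 0.667), and mock and tagged lists differed by -3.94 points (exact permutation within tissue, p = 0.533). Both signs turned when single mock libraries were left out, to -5.48 without head mock replicate 1 and -2.05 without body mock replicate 2 for head against body. For mock against tagged the difference was 3.25 without head mock replicate 2 and 1.54 without body mock replicate 2. In the replicate 2 lists most clustered best peaks were on heterochromatic scaffolds. Among best peaks off the heterochromatic scaffolds, 23 of 58 and 5 of 54 were clustered in head mock, and 20 of 63 and 2 of 61 in body mock.

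The cluster that holds the XHet block had the most peaks in both body mock lists and shared first place in head mock replicate 2. In head mock replicate 2 it ran over chrXHet:189235-202877 and held the 7 block peaks and 3 beyond them. It had 9 peaks over chrXHet:190515-195920 in body mock replicate 1 and 11 over chrXHet:189262-195995 in body mock replicate 2. Head mock replicate 2 had a further cluster of 10 peaks at chr3R:5906076-5927137. The next in body mock replicate 1 were 5 peaks at chrX:5794441-5807221 and 3 at chr3R:17199253-17200194. In body mock replicate 2 the next were pairs at chrX:10326-10999 and chr3R:4130998-4131870.

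Most peaks of each mock list did not recur in the other replicate, and in bodies all that did were in the XHet block. With an overlap of 1 bp or more, 625 of 12082 peaks of head mock replicate 1 (5.17%) recurred in replicate 2, and 587 of 1726 peaks of head mock replicate 2 (34.0%, Clopper-Pearson 95% interval 31.8 to 36.3) recurred in replicate 1. In bodies 7 of 73 peaks of replicate 1 (9.59%, interval 3.94 to 18.8) and 6 of 175 of replicate 2 (3.43%, interval 1.27 to 7.31) recurred in the other replicate. These intervals cover counting error only. On the main arms 493 of 1577 peaks of head mock replicate 2 recurred in head mock replicate 1, while 0 of 49 and 0 of 161 arm peaks were shared between the body mock lists.

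Across tissues a larger share of body mock peaks than of head mock peaks recurred, in lists of very unequal length. Of the body mock peaks, 46 of 73 in replicate 1 (63.0%) and 40 of 175 in replicate 2 (22.9%) overlapped a head mock peak. Of the head mock peaks, 80 of 12082 in replicate 1 (0.662%) and 26 of 1726 in replicate 2 (1.51%) overlapped a body mock peak. Body mock replicate 1 thus shared more of its peaks with head mock replicate 1 (43, or 58.9%) than with head mock replicate 2 (15, or 20.5%) or the other body list (7, or 9.59%). Body mock replicate 2 shared 34 (19.4%) with head mock replicate 1 and 16 (9.14%) with head mock replicate 2. With every list cut to 73 peaks the counts came close together. Head mock replicate 2 had 11 of 73 peaks in head mock replicate 1. Body mock replicate 1 had 17 in head mock replicate 1 and 9 in head mock replicate 2, body mock replicate 2 had 11 and 8, and the body lists shared 7 and 6.

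Recurrence was uneven over the genome. On chromosome 4, 79 of 107 peaks of head mock replicate 2 (73.8%) lay on a peak of head mock replicate 1. On XHet 8 of 10 did, on X 55 of 157 (35.0%) and on 2L 104 of 364 (28.6%). Peaks of head mock replicate 1 covered 17.7% of chromosome 4, 4.83% of XHet, 2.36% of X and 2.38% of 2L. An overlap of 1 bp is met over more than the covered bases, so coverage is not the share to be met by accident. Recurrence relative to peak density was not tested, and these shares do not rank the chromosomes by it. In body mock replicate 1, 11 of 14 chromosome 4 peaks and 9 of 10 XHet peaks were in a head mock list, and in body mock replicate 2 neither of the 2 chromosome 4 peaks was but 10 of 11 XHet peaks were. By first score, recurrence was highest among the 20 best peaks, of which 12 and 9 in head mock and 9 and 11 in body mock were on XHet. In bodies all recurring peaks were in the XHet block, so the body values below are those of the block. A trend with the first score apart from the block was not tested. Among the 20 best peaks 60.0% in each head mock list and 35.0% and 30.0% in the body mock lists recurred in the other replicate, and at ranks 21 to 73 the shares were 11.3% and 47.2% in head mock and 0 in both body lists. The median first score of recurring peaks was 4.14 and 3.50 in head mock against 3.25 and 3.08 for the rest, and 46.9 and 60.7 in body mock against 7.70 and 3.35. By first score the shares in the further ranks of head mock replicate 1 were uneven, between 3.69% and 9.23%, and those of head mock replicate 2 lay between 31.2% and 40.6%. The median second score was lower in recurring peaks, at 4.06 and 2.70 for recurring peaks in head mock against 4.73 and 2.75, and at 2.47 and 2.59 in body mock against 4.47 and 4.36. Ranked by second score, however, 15.0% of the first 20 in head mock replicate 1 recurred, against 3.38% to 5.94% at later ranks. In head mock replicate 2 it was 25.0% of the 20 best, against 25.5% to 35.0% at later ranks, and in both body lists 0.

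Merged where they overlapped, the mock peaks formed 12769 regions, of which 12147 had a peak in 1 list, 601 in 2, 18 in 3 and 3 in all 4. Regions found in both head lists numbered 565, and regions found in both tissues 76. Without head mock replicate 1, 26 regions were found in both tissues. By chromosome the 76 lay on 3R (15), 2L (13), 4 (11), 3L (10), X (10), XHet (10), 2R (6) and 3LHet (1). The 10 on XHet stand beside 38 XHet peaks in head mock replicate 1, and the 15 on 3R beside 2821 peaks of that arm in the same list.

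**Figure D5:**
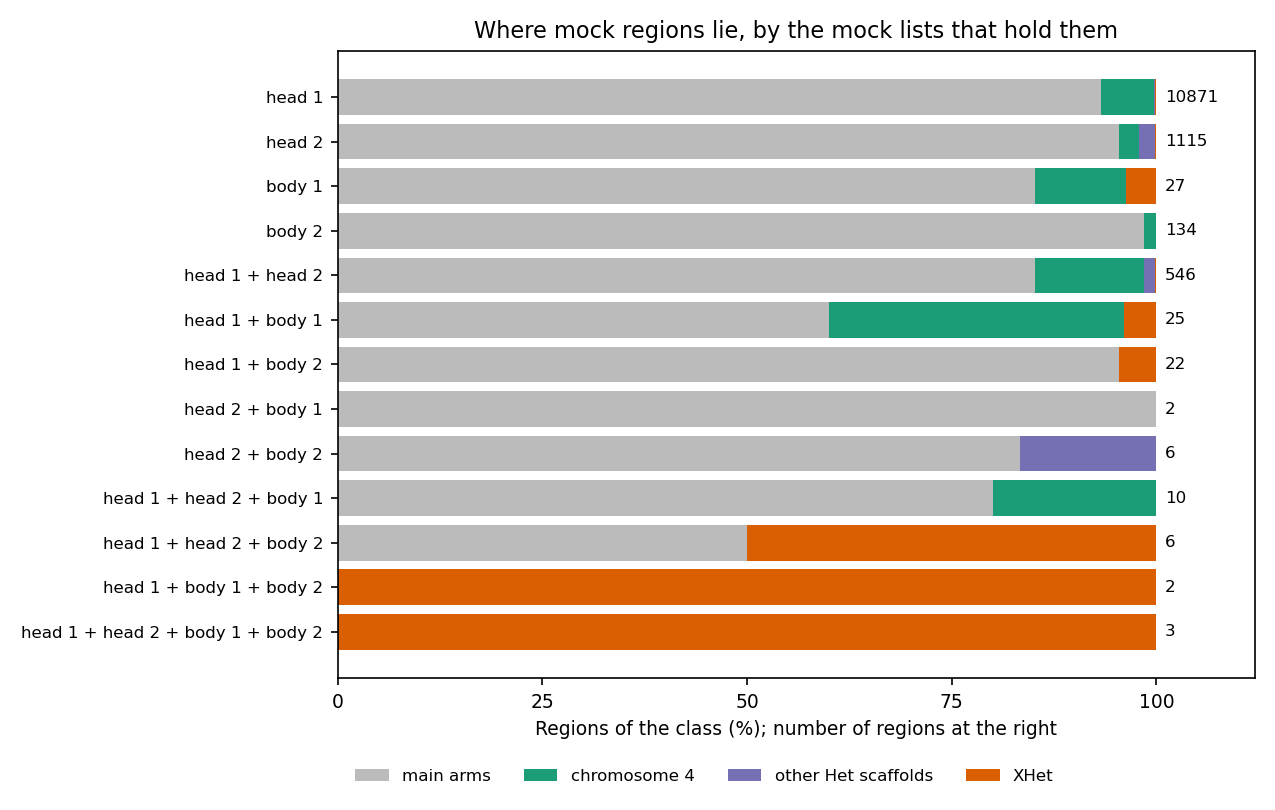
Percentage of merged mock regions on the main arms, chromosome 4, XHet and other heterochromatic scaffolds, for each combination of mock lists that hold them (head 1 is head mock replicate 1, and so on), with the number of regions at the right. The 5 regions held by both body lists (2 with head 1 alone, 3 with both head lists) are all on XHet, while 546 regions shared by the head lists alone are mostly on the main arms.

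The regions found in all 4 lists were chrXHet:190398-190951, chrXHet:194280-195327 and chrXHet:195336-195995. The first had best first scores of 75.9 and 88.0 in head mock and 41.1 and 67.6 in body mock. The second had 85.8 and 78.9 in head mock and 49.8 and 44.9 in body mock, and the third had 83.0 and 72.98 in head mock and 46.9 and 65.8 in body mock. In each of the 3 both head values exceeded both body values. They had a peak in 5, 3 and 4 of the 8 tagged lists, in the same order. Both body lists also held chrXHet:191121-191528 and chrXHet:191683-192082. These scored 91.2 and 78.5 in head mock replicate 1, had no peak in head mock replicate 2, and scored 50.7 and 55.9 in body mock replicate 1 and 69.7 and 50.4 in body mock replicate 2. The remaining XHet regions in 3 lists were chrXHet:189235-189783, chrXHet:189919-190303 and chrXHet:192116-192566, each in both head lists and body mock replicate 2. The widest merged region was 1080 bp, so such regions can join neighbouring peaks. With midpoints at most 100 bp apart, 1 region was left in all 4 lists.

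On the main arms no region was in all 4 lists, and the regions in 3 lists all included both head lists. The best by mean rank over both head lists was chr3R:17199650-17199951, with first scores of 44.5 and 8.52 in head mock and 25.4 in body mock replicate 1. Next came chr2R:5332292-5332582, with 39.5 and 7.15 in head mock and 12.4 in body mock replicate 1, and chrX:9360508-9360830, with 48.2 and 6.83 in head mock and 21.5 in body mock replicate 1. In all 3 the head mock replicates differed several-fold and the body value lay between them. Of the 10 best-ranked regions in both head lists, 6 were on XHet, 3 were these, and the last was chr3R:27422182-27422736, with 21.1 and 6.96 in head mock and no body mock peak. Of the 11 arm regions in 3 lists, 8 had their body peak in replicate 1 and 3 in replicate 2. Chromosome 4 had chr4:352276-352669, with 12.98 and 2.65 in head mock and 3.73 in body mock replicate 1, and chr4:1226953-1227853, with 4.06 and 2.79 in head mock and 10.1 in body mock replicate 1.

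Most of the recurring background was also present in tagged lists. Of the 565 regions in both head mock lists, 496 (87.8%) held a peak of at least 1 tagged list. All 21 regions found in 3 or 4 mock lists did, and none of them was in all 8 tagged lists. For regions in a single mock list the share was 75.03% in head mock replicate 1 (8156 of 10871) and 41.5% in head mock replicate 2 (463 of 1115), against 51.9% in body mock replicate 1 (14 of 27) and 30.6% in body mock replicate 2 (41 of 134). By list, head mock replicate 1 had 59.8% and 58.3% of its peaks in the replicate 1 lists of head CLK and CYC and 16.0% and 16.4% in the replicate 2 lists. Head mock replicate 2 had 31.5% and 33.3% in the replicate 1 lists and 16.0% and 21.4% in the replicate 2 lists. Head tagged replicate 1 lists hold more peaks (13729 and 12086) than the replicate 2 lists (4609 and 4848).

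Body mock replicate 1 overlapped head tagged lists more than body tagged ones. It had 56.2% and 65.8% of its peaks in head CLK and head CYC replicate 1, against 16.4% and 10.96% in body CLK and body CYC replicate 1. The head lists searched are 13729 and 12086 peaks long and the body lists 2433 and 3967. Body mock replicate 2 had 22.3% and 24.6% in the head replicate 1 lists and 11.4% and 13.1% in the body replicate 1 lists. Peaks at the strongest tagged sites were found mainly in 1 mock library. Of the 10 strongest regions shared by all 8 tagged lists, head mock replicate 1 had a peak at 10, at ranks 114 to 1555, and the other mock lists had 0. Peaks of head mock replicate 1 are therefore background by label only, and the source of its peaks at tagged sites was not tested. Of all 173 regions in the 8 tagged lists, head mock replicate 1 had a peak at 69, head mock replicate 2 at 19, body mock replicate 1 at 0 and body mock replicate 2 at 1. Over all peaks of a tagged list, head mock replicate 1 met 38.9% to 60.0% in the head lists and 15.4% to 24.0% in the body lists. For head mock replicate 2 the share was 3.83% to 7.82% over the 8 lists, and for the body mock lists 0.202% to 0.945%. Whether the 173 regions differ from all tagged peaks in this was not tested.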

How the data were processed

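V5 pull-downs of fly heads and bodies were compared from the 4 mock lists, with the 8 lists of tagged CLK or CYC as the other group. Reads were mapped with Bowtie 0.12.7 to dm3, per the submitters' processing notes. Which program called the peaks, and how, is not given in the sources used here. The deposited lists give a position and 2 unnamed values per peak, treated as a score in the authors' unit with no known scale. Peaks were called per replicate, since each library has a list of its own, and all peaks of a list have 1 width. Depth is unknown.

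From these lists, peaks were ranked by the first score, the scores having no name to choose by, and were counted as overlapping when they shared 1 bp. Overlapping peaks were merged into regions, and clusters were runs with gaps of at most 5000 bp. Heterochromatic scaffolds are those whose names end in Het. Peaks per Mb use the length up to the last peak of any list. Libraries were compared by exact two-sided permutation tests, within tissue for mock against tagged (225 arrangements), on percentages or on log2(peaks + 1). P-values were adjusted over 11 tests with the Benjamini-Hochberg method, and 3 of the 11, on chromosome 4 and on the number of heterochromatic peaks, were added after seeing the data. Shares of peaks have Clopper-Pearson 95% intervals and no p, because peaks are not replicates. Calculations used Python 3.11.15, numpy 2.4.6, pandas 2.3.3 and scipy 1.17.1. The merging was tested on simulated lists and recovered 50 of 50 planted regions. Planted peaks overlapped by design and lay on the main arms only. This checks the code and not the merging of dense runs of peaks.

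The groups, region lists and tests were chosen with earlier results of these data known. Named regions are those in all 4 mock lists, the 10 best in both head lists, those in both body lists, the 3 best peaks (by each score and off heterochromatin) and 3 largest clusters of each list, and small classes. The regions of chromosome 4 and of the main arms in 3 lists, and the cluster of head CYC replicate 1, were picked after their values were seen. The bounds of the XHet block were fixed positions, also set with the data known. The 12 input libraries were not analysed here.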

Additional observations from a re-analysis of the deposited data

Results flagged for a closer look

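The mock-minus-tagged difference in the share of heterochromatic peaks was unlike in the tissues. It was 1.09 points in heads (mean 1.47% in mock and 0.388% in tagged lists) and 9.91 points in bodies (10.3% in mock and 0.370% in tagged lists). Head minus body, the difference was -8.82 points (approximate permutation of residuals within tissue, p = 0.00444, the smallest these permutations can give). This p is unadjusted, lies outside the 11 tests and was picked for being below 0.05. Tagged means were nearly equal, so the contrast is close to the head-minus-body mock difference of -8.80 (exact permutation p = 0.333, the smallest possible). The permutation treats residuals as alike, although the SD was 4.84 in body mock and 0.267 and 0.302 in the tagged lists. Leaving out 1 library at a time it ran from -12.2 to -5.40, with permutation p up to 0.0667, the value without head mock replicate 1. List length moved with it, at 12082 and 1726 peaks in head mock and 73 and 175 in body mock. As a number of peaks on the scale log2(peaks + 1) the head-minus-body difference was -0.37 (approximate permutation p = 0.813), and among the 73 best peaks of each list it was 6.85 points (approximate permutation p = 0.298). The part of list length in the difference was otherwise not tested.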

How the results depend on the processing

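Under the other settings tried, 94 values of the planned results held, 13 moved and 6 reversed. A tested value was taken to hold when its direction and its side of an unadjusted 0.05 were kept, whatever its size, a share when it stayed in the 95% interval of the reported one, and a count when it stayed within 1.5 times. Part of the 94 could not fail. Tests of head against body mock cannot give p below 0.333, so their side of 0.05 was fixed. Counting only scaffolds ending in Het gave the same values as the main setting. The replicate block leaves each difference as it is and can change only p. For results added after seeing the data, 26 values were alike under the other settings, 6 lost the unadjusted call, 1 moved and 1 reversed. The cause of these changes was not tested. With best peaks taken by second score, the clustered share of head minus body mock reversed to -10.3 points. Leaving out 1 library at a time, that share ran from -5.48 to 23.3, and the clustered share of mock minus tagged from -11.1 to 3.25. The X share of mock minus tagged ran from -1.96 to 9.17. The chromosome 4 share ran from 1.71 to 10.7 for mock minus tagged, with exact permutation p from 0.00667 to 0.200, and from -12.3 to 5.74 for head minus body mock. The heterochromatic share of mock minus tagged ran from 3.79 to 7.21 (exact permutation p 0.00667 to 0.0267) and that among best peaks from 14.4 to 17.8 (exact permutation p 0.00667 to 0.0133). The log2 peak number of head minus body mock ran from 3.92 to 6.73.

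Recurrence shares fell with stricter overlap. For head mock replicate 2 in replicate 1 the share was 22.4% when peaks shared 50% of the shorter one, 17.4% with midpoints at most 100 bp apart, 27.6% among peaks at or above the median first score and 15.1% at equal list length. For body mock replicate 1 in head mock lists it was 50.7%, 41.1% and 26.0% at 50% overlap, by midpoints and at equal length. For body mock replicate 2 it was 14.3%, 12.6% and 16.4% in the same order, and 29.9% above the median score. By midpoints, 1 region was left in all 4 mock lists, and 78.3% of regions in both head lists held a tagged peak. Without head mock replicate 1, 26 regions were in both tissues. The number of regions in both body lists was 5 under each of these overlap rules.

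Adjusted over the 11 tests, the 2 heterochromatic shares of mock minus tagged passed in 1 of 12 fits that leave out a library, with values from 0.0244 to 0.147. The labels do not say that a replicate number marks a shared batch, so numbers were not taken as pairing. Over 24824 regions the presence of peaks in same-numbered libraries correlated at 0.03 between head and body mock. In heads it correlated at 0.19 between mock and CLK, 0.23 between mock and CYC and 0.21 between CLK and CYC. In bodies the values were 0.0025, -0.0022 and 0.15 in the same order. With the replicate block the heterochromatic share of mock minus tagged kept its difference of 5.50 points (exact permutation p = 0.0247) and that among best peaks its 15.8 points (exact permutation p = 0.0123, the smallest the block allows). Adjusted over the 11 tests both exact permutation values were 0.136, so neither passed, and the smallest p of the block is too large for 1 test alone to pass.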
